A study of Mus musculus with 6 samples.

Results

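Kappa chain variable (V) segments are short genes of the kappa light chain locus, each of which encodes most of the antigen-binding domain of an antibody light chain. They were taken as the rows of the expression table whose symbol begins with Igkv, which gave 158 of the 53677 genes, in 20 families by the number before the first hyphen. Of these, 98 are annotated as functional V genes and 60 as V pseudogenes in GENCODE M21. All lie on chromosome 6 of GRCm38, from 18.4 to 3166 kb before Igkj1, the first joining segment (chromosome 6, 70722562 to 70722599, + strand). Poly(A) RNA was measured in 6 libraries of short-term hematopoietic stem cells (ST-HSC), multipotent progenitors with limited self-renewal, from C57BL/6J mice. Marrow came from ground long bones, pelvis and spine, and cells negative for lineage markers and CD150 and positive for Kit and CD48 were sorted. The 3 wild-type libraries (WT, genotype label dnTCF4-/-) were compared with 3 libraries of mice that express dnTCF4, a dominant-negative form of the transcription factor TCF4 (genotype label dnTCF4+/+). The series text speaks of 3 mice per genotype, and the labels give neither the age of the animals nor the promoter that drives dnTCF4.

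A kappa light chain gene is made in a developing B cell when the RAG recombinase joins 1 V segment to 1 of the Igkj joining segments upstream of Igkc, the constant gene. The V promoter then drives a transcript that runs through V, J and C, so a mature transcript holds 1 V segment, and a population of many B-lineage clones holds many. Plasma cells make such transcripts at a very high level. Stem and progenitor cells have not rearranged the locus, although unjoined V segments can give low levels of germline transcripts.

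The 3′ ends of the segments carry the part of the V gene that becomes the start of the third complementarity-determining region, the stretch that differs most between antibodies. They are shown for the 10 segments that passed the test below and for 7 others whose level or pattern is described below, because this stretch borders the joint with Igkj. Some of these ends are shared with another segment, as given further on. The lower-case letters end with the codon of the conserved cysteine, and the capitals are the bases that follow it in the germline segment (GENCODE M21 transcripts, GRCm38, 5′ to 3′ on the coding strand).
Igkv3-2: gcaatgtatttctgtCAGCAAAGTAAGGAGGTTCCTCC
Igkv3-4: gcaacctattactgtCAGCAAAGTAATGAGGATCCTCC
Igkv3-12: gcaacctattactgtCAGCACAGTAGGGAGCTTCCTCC
Igkv5-39: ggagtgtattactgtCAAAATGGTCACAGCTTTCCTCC
Igkv5-43: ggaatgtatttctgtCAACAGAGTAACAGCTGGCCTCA
Igkv8-34: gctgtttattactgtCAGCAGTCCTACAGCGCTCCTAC
Igkv4-53: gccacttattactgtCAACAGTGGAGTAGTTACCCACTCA
Igkv4-61: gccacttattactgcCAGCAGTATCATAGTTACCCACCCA
Igkv12-46: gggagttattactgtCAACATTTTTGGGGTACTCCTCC
Igkv17-127: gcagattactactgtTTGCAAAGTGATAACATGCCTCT
Igkv19-93: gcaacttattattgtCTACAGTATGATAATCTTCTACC
Igkv6-15: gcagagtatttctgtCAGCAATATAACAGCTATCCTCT
Igkv15-103: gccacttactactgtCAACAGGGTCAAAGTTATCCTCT
Igkv14-111: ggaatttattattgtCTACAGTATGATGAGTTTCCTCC
Igkv8-27: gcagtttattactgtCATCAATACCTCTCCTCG
Igkv1-99: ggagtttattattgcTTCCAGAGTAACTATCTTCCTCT
Igkv10-95: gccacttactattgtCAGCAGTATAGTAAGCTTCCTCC
Of the 98 functional segments, 96 had a cysteine codon that could be placed near the 3′ end. Each sequence runs to the last base of the annotated transcript, and bases added or lost at the joint with Igkj are not in it.

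Kappa V transcripts were abundant in the WT libraries and lower in every dnTCF4 library. Levels are given as RPKM, the reads of a gene per kilobase of its length and relative to all reads counted in that library. Summed over the 158 segments, the level was 54556, 28919 and 24518 RPKM in WT replicates 1, 2 and 3, and 6903, 2447 and 5793 RPKM in dnTCF4 replicates 1, 2 and 3. The lowest WT sum was above the highest dnTCF4 sum, and WT replicate 1 stood above the other WT libraries. The means were 35998 ± 16222 and 5048 ± 2320 RPKM (SD, n = 3 each), a 7.13-fold lower level in dnTCF4 (exact two-sided permutation p = 0.1, the smallest that 3 against 3 libraries can give). As a share of all summed RPKM, kappa V segments took 9.15%, 5.87% and 4.89% in WT and 1.56%, 0.619% and 1.26% in dnTCF4. In bulk RNA, fewer cells of a type and less RNA per cell cannot be told apart.

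The WT libraries held 61800000 to 67700000 counted reads and the dnTCF4 libraries 57400000 to 110900000. Kappa V segments took 1277590, 653736 and 611187 of them in WT replicates 1, 2 and 3 and 158938, 100172 and 121004 in the dnTCF4 replicates. The deepest library, dnTCF4 replicate 2, thus held the fewest kappa V reads. Reads amplified without molecular identifiers are not independent molecules, so limits set by counts cover counting error only.

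The constant and joining genes of the locus were lower together with the V segments. Igkc, which encodes the constant domain shared by all kappa chains, was at 74124, 40883 and 38609 RPKM in WT and 7979, 3645 and 8466 RPKM in dnTCF4. It fell by 2.96 on the log2 scale (limma adjusted p = 0.042, or 0.032 with the replicate number as a block). Its call was lost in each of the 6 fits that left out 1 library (limma adjusted p from 0.057 to 0.132). The ratio of summed V to Igkc was 0.736, 0.707 and 0.635 in WT and 0.865, 0.671 and 0.684 in dnTCF4, so the groups overlapped (log2 difference 0.09, exact permutation p = 0.7). That difference was -0.03 without dnTCF4 replicate 1. The 5 joining segments summed to 7338, 7356 and 7821 RPKM in WT and 1586, 776 and 1454 RPKM in dnTCF4, a 5.90-fold difference of the means with no overlap.

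**Figure D1:**
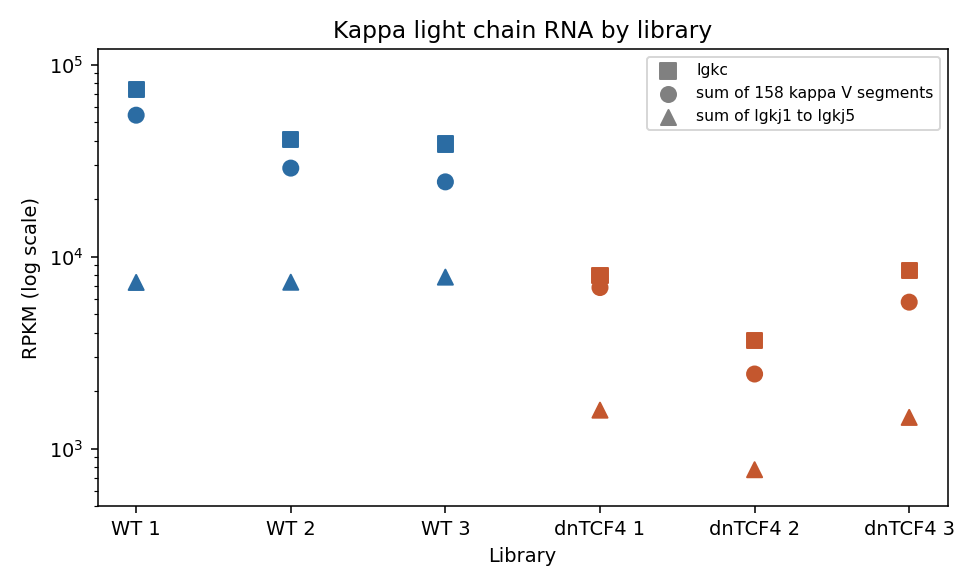
Summed RPKM of the 158 kappa V segments (circles), RPKM of Igkc (squares) and summed RPKM of Igkj1 to Igkj5 (triangles) in each of the 6 libraries, on a log axis, with WT in blue and dnTCF4 in orange. For each of the 3 measures the lowest WT library lies above the highest dnTCF4 library.

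Most markers of plasma cells, the cells that secrete antibody, were lower in the same libraries as the V segments. The 13 plasma cell markers in the table summed to 2664 to 7879 RPKM in WT and 328 to 697 RPKM in dnTCF4, and most of each sum was Jchain. Of the 12 tested, 11 were lower in dnTCF4. Limma called 0 of them, 9 had an unadjusted p under 0.05, and 1, Mzb1, was called with the block (adjusted p = 0.031). Jchain, which links secreted IgA and IgM, was at 7568, 2592 and 2482 RPKM in WT and 612, 284 and 615 RPKM in dnTCF4 (limma adjusted p = 0.0998, or 0.051 with the block). Eaf2 and Slamf7 (limma adjusted p = 0.0998 each) were also below their WT values in all 3 dnTCF4 libraries. Sdc1 overlapped between the genotypes, at 1.93, 1.42 and 2.00 RPKM in WT and 2.56, 0.601 and 1.36 RPKM in dnTCF4 (limma adjusted p = 0.77). Edem1 was the tested marker with a higher fitted value in dnTCF4. Of the 14 B cell markers in the table, 6 were tested, 4 were lower and limma called 0 (2 at an unadjusted p under 0.05). Those 2 were Cd79a, at 40.4 ± 24.5 RPKM in WT and 10.7 ± 8.74 RPKM in dnTCF4, and Fcrla, at 8.15 ± 1.86 and 2.11 ± 0.912 RPKM. For both, every dnTCF4 library was below every WT library (limma adjusted p = 0.36 and 0.11). The B cell marker sums were 157 to 260 RPKM in WT and 135 to 196 RPKM in dnTCF4. Most of each sum was Cd79b and Cd72, whose fitted values were higher in dnTCF4 (log2 differences 0.09 and 0.20), so the sums do not show these falls. Pax5, which defines B cell identity, was at no more than 0.047 RPKM in any library. Neutrophil markers mostly had the opposite sign, with 8 of the 9 tested higher and Cxcr2 lower. Their sums were 621 to 3122 RPKM in WT and 3073 to 7598 RPKM in dnTCF4, and WT replicate 3 lay above dnTCF4 replicate 1. Limma called 0 of the 9 tested, with 7 at an unadjusted p under 0.05. Erythroblast markers summed to 17.9 to 30.4 RPKM in WT and 53.1 to 96.7 RPKM in dnTCF4, with 0 of 5 called by limma and 4 at an unadjusted p under 0.05. The T cell markers summed to 2.18 to 5.69 RPKM in WT and 2.26 to 6.01 in dnTCF4. Of the gate genes, Kit was read at 35.5 to 97.1 RPKM and Cd48 at 813 to 1415 RPKM over the 6 libraries, and Slamf1 (CD150) was at no more than 1.18. Over all genes tested, 31.5% had a lower fitted value in dnTCF4 and 9.62% an unadjusted p under 0.05 in limma in either direction. The part of these other cell types in the kappa V result was not tested.

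Of the 158 segments, 89 reached a mean of 1 RPKM over the 6 libraries and were tested. Another 44 were listed at 0 in every library, and the remaining 25 never exceeded 2.79 RPKM. Among the 89, 85 had a lower fitted value in dnTCF4 and 4 a higher one, with a median log2 fold change of -3.20 against 0.14 over all 11326 genes tested and a range of -8.97 to 1.29. The fold changes are dnTCF4 minus WT on log2(RPKM + 1). At an adjusted p under 0.05 over all genes tested, limma called 10 segments, all lower in dnTCF4, which is 11.2% of those tested. Over all genes tested 0.256% were called lower and 0.0441% higher, and 31.5% had a lower fitted value. In 42 of the 89 segments all 3 dnTCF4 values lay below all 3 WT values, against 2.26% of all genes tested. In 0 of the 89 did all 3 lie above, against 15.4% of all genes tested. An unadjusted p under 0.05 was reached by 54, all lower in dnTCF4, against 9.62% of all genes tested in either direction. A filter on the mean lets in segments that are high in 1 genotype only, so these counts describe the tested segments and not all 158. The count of calls was 5 without WT replicate 1, 6 without dnTCF4 replicate 3, and 4 of 114 segments when genes of any level were tested, where 0.0163% of all genes were called lower.

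The 4 segments called in every fit that left out 1 library were well read in each WT library and close to 0 in each dnTCF4 library. Igkv3-2 (chromosome 6, 70698449 to 70699067, + strand), 23.5 kb before Igkj1, was at 1045, 433 and 612 RPKM in WT and 0.294, 0.286 and 0.323 RPKM in dnTCF4. These values stand for 25079, 10115 and 15663 reads in WT and 7, 12 and 7 reads in dnTCF4. The 3 dnTCF4 libraries were nearly equal and far below the lowest WT value. Its log2 fold change was -8.97 (SE 0.31, limma adjusted p = 0.00011).

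Igkv5-39 (69900424 to 69900977, − strand) was at 775, 456 and 172 RPKM in WT and 0.137, 0.026 and 0.050 RPKM in dnTCF4, where 3, 1 and 1 reads were counted. Its log2 fold change was -8.53 (SE 0.50, limma adjusted p = 0.00087). The WT values spread more than those of Igkv3-2, and again no dnTCF4 library came near them.

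Igkv3-4 (70671788 to 70672377, + strand), the next called segment of family 3, was at 174, 163 and 179 RPKM in WT and 0, 0.050 and 1.06 RPKM in dnTCF4. Its WT values were the closest to each other of the called segments. Its log2 fold change was -7.06 (SE 0.29, limma adjusted p = 0.0002). Igkv8-34 (70044112 to 70044678, − strand) was at 179, 71.5 and 127 RPKM in WT and listed at 0 in each dnTCF4 library. Set against 3 reads in the shallowest dnTCF4 library, the limit that a count of 0 allows there, the lowest WT library was at least 499-fold higher. Igkv3-2, Igkv3-4, Igkv5-39 and Igkv8-34 are the segments called in each of the 6 fits that left out 1 library.

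The other 6 called segments kept their call in 1 or 2 of those 6 fits, so their calls depend on which libraries are in the fit. Igkv4-61 (69416893 to 69417455) was at 152, 32.7 and 215 RPKM in WT and 0.706, 0.024 and 0 RPKM in dnTCF4. Igkv4-53 (69648824 to 69649363) was at 138, 22.3 and 238 RPKM in WT and 0.216, 0.025 and 0.285 RPKM in dnTCF4. Both belong to family 4, lie on the − strand and were lowest of the WT libraries in replicate 2 (log2 fold changes -6.43 and -6.30, limma adjusted p = 0.025 and 0.038). Igkv3-12 (70518250 to 70518849, + strand) was at 173, 39.5 and 38.5 RPKM in WT and 1.86, 0 and 0 RPKM in dnTCF4. Its log2 fold change was -5.53 (SE 0.66, limma adjusted p = 0.034, or 0.003 with the block).

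A further 3 called segments were lower but still read in every dnTCF4 library. Igkv5-43 (69823355 to 69823943, − strand) was at 1328, 303 and 349 RPKM in WT and 12.9, 27.5 and 12.3 RPKM in dnTCF4 (a log2 difference of -4.90, limma adjusted p = 0.034). Igkv17-127 (67861153 to 67861659, + strand) was at 651, 1413 and 465 RPKM in WT and 93.1, 66.7 and 91.3 RPKM in dnTCF4 (a log2 difference of -3.17, limma adjusted p = 0.038). Igkv12-46 (69764523 to 69765022, − strand) was at 549, 463 and 333 RPKM in WT and 85.7, 50.6 and 33.6 RPKM in dnTCF4 (a log2 difference of -3.04, limma adjusted p = 0.034). In all 3 the lowest WT value exceeded the highest dnTCF4 value several times over.

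With the replicate number as a block, limma called 12 segments, 8 of them among the 10, where 0.371% of all genes tested were called lower. Igkv5-43 (adjusted p = 0.057) and Igkv17-127 (0.073) lost their call in that limma fit. Igkv10-96 (0.018), Igkv4-59 (0.031), Igkv6-32 (0.039) and Igkv1-110 (0.047) gained one. Igkv6-32 was at 1278, 754 and 422 RPKM in WT and 25.5, 0 and 0 RPKM in dnTCF4, so its groups stood far apart without passing in the fit without the block (limma adjusted p = 0.076).

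**Figure D2:**
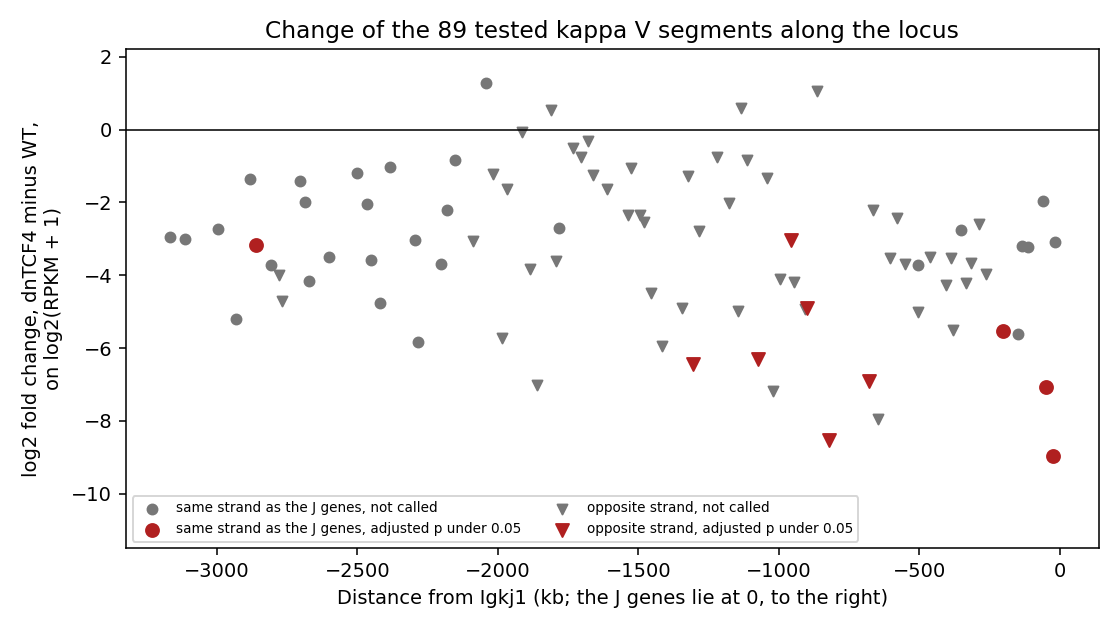
Log2 fold change (dnTCF4 minus WT, on log2(RPKM + 1)) of each of the 89 tested kappa V segments against its distance from Igkj1 in kb, with circles for segments on the strand of the joining genes, triangles for those on the opposite strand, and red for the 10 with an adjusted p under 0.05. All but 4 points lie below 0, and the lowest, Igkv3-2 at -8.97, is 23.5 kb from Igkj1.

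The leading segments of the libraries were not among those called. Igkv19-93 was at 4174, 5497 and 1809 RPKM in WT and 1649, 127 and 0.336 RPKM in dnTCF4. It was the highest segment of WT replicate 2 and of dnTCF4 replicate 1 and nearly absent from dnTCF4 replicate 3 (log2 fold change -5.72, SE 2.26, limma adjusted p = 0.49). Igkv6-15 was at 5621, 1232 and 1906 RPKM in WT and 916, 2.94 and 1809 RPKM in dnTCF4. It led WT replicate 1 and dnTCF4 replicate 3, where it was close to WT replicate 3, and was near 0 in dnTCF4 replicate 2 (log2 fold change -3.66, SE 2.14, limma adjusted p = 0.64). Igkv15-103, the highest of WT replicate 3, was at 1377, 1801 and 2161 RPKM in WT and 218, 0.024 and 126 RPKM in dnTCF4 (limma adjusted p = 0.36). Its WT values were close to each other, while dnTCF4 replicate 2 held almost none.

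Igkv14-111 was read evenly in dnTCF4. It was at 2215, 1014 and 1051 RPKM in WT and 279, 387 and 319 RPKM in dnTCF4, where it was the highest segment of replicate 2 (log2 fold change -2.03, SE 0.32, limma adjusted p = 0.084). The groups did not overlap. Igkv8-27 was at 2024, 1272 and 710 RPKM in WT and 51.9, 320 and 47.7 RPKM in dnTCF4 (limma adjusted p = 0.14). Igkv6-23 was at 1119, 856 and 1056 RPKM in WT and 71.8, 34.0 and 278 RPKM in dnTCF4 (limma adjusted p = 0.14). Igkv10-96 was at 1538, 633 and 1112 RPKM in WT and 225, 60.8 and 136 RPKM in dnTCF4, and its groups did not overlap either (log2 fold change -3.05, SE 0.51).

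In 6 tested segments the mean was higher in dnTCF4, although the fitted log2 change was below 0 in 3 of them, Igkv1-99 (-2.21), Igkv4-58 (-0.76) and Igkv4-90 (-0.08). Igkv1-99 was at 300, 299 and 0 RPKM in WT and 0, 0 and 912 RPKM in dnTCF4, so 3 libraries held it and 3 did not, and its highest value was in dnTCF4 replicate 3. Igkv10-95 was at 1.82, 0.373 and 0.979 RPKM in WT and 0.091, 101 and 0 RPKM in dnTCF4, the only segment to reach 10 RPKM in a dnTCF4 library and in no WT library. Igkv4-86 was high in WT replicate 1 (64.6 RPKM) and dnTCF4 replicate 3 (122 RPKM) and under 1 RPKM in the other 4 libraries. Igkv4-90 was at 0, 14.0 and 31.4 RPKM in WT and 34.9, 0 and 10.5 RPKM in dnTCF4, with means of 15.1 and 15.2 RPKM. Igkv4-58 was at 39.0, 37.1 and 7.14 RPKM in WT and 33.6, 73.1 and 0 RPKM in dnTCF4. Igkv4-56, a pseudogene, was at most 0.41 RPKM in 5 libraries and at 6.25 RPKM in dnTCF4 replicate 2. Limma called 0 of these 6, and 0 had an unadjusted p under 0.05. Igkv12-41 had the second highest fitted change (1.07) at 157, 0 and 1.06 RPKM in WT and 0.594, 27.7 and 64.7 RPKM in dnTCF4.

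Many of the higher segments were read in some libraries and nearly absent from others. Of the 68 segments that reached 100 RPKM in some library, 44 were below 1 RPKM in another. Within WT, 66 segments reached 100 RPKM in some library and 10 of them were below 1 RPKM in another WT library. Within dnTCF4, 26 reached 100 RPKM and 11 of them were below 1 RPKM in another dnTCF4 library. At 10 RPKM, 82 segments were read in some library, 20 in all 6, and 52 in all 3 WT libraries. Of those 52, 20 were also at 10 RPKM in all 3 dnTCF4 libraries, 14 in 2, 10 in 1 and 8 in none. The 8 were Igkv3-2, Igkv3-4, Igkv3-12, Igkv4-50, Igkv4-53, Igkv4-61, Igkv5-39 and Igkv8-34, and no segment had the opposite pattern. These counts use fixed cuts of 100, 10 and 1 RPKM, so they move with the kappa V total, which was lower in dnTCF4. Counts over all 6 libraries also include the difference between the genotypes. The same counts over all genes were not made.

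**Figure D3:**
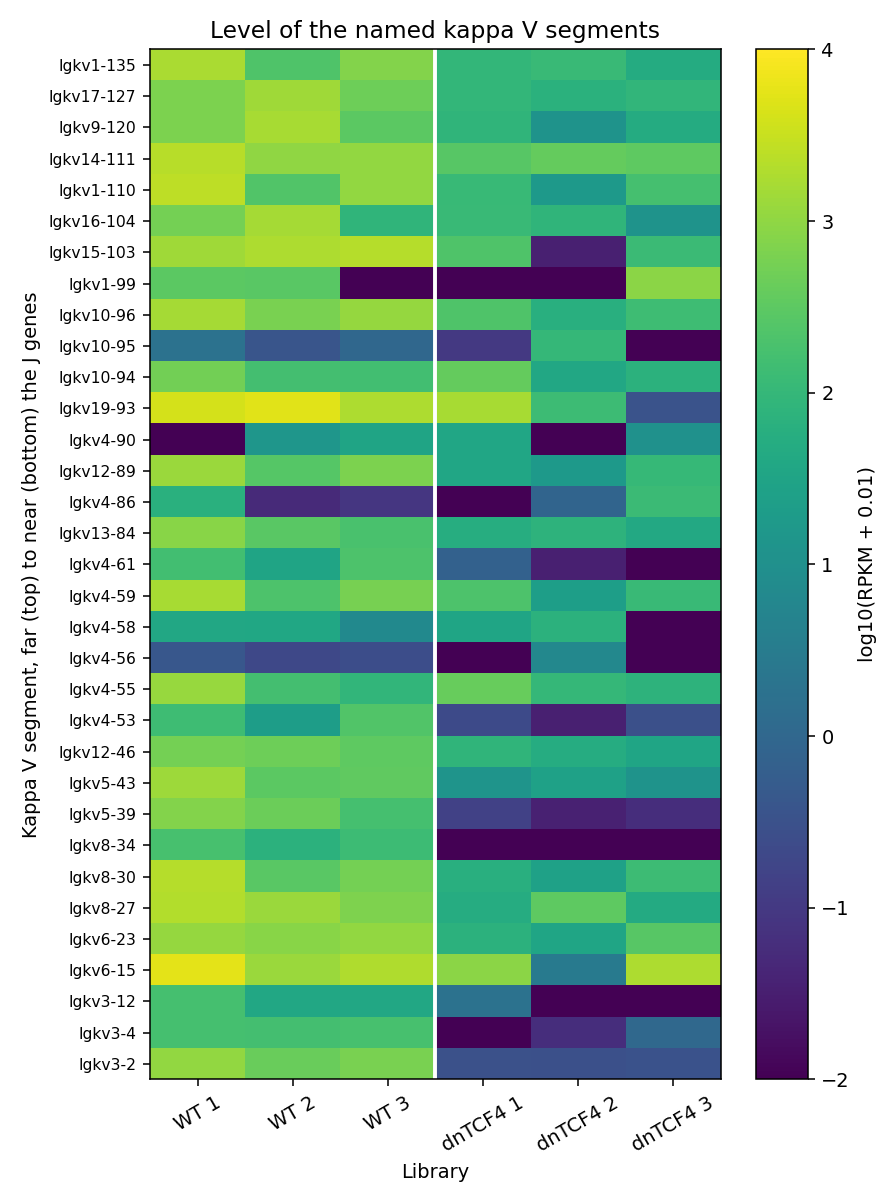
Level of 33 kappa V segments (rows, from the far end of the locus at the top to the segments next to the joining genes at the bottom) in the 6 libraries (columns), coloured by log10(RPKM + 0.01), with a white line between WT and dnTCF4. Dark cells are libraries that hold almost none of a segment, such as Igkv6-15 in dnTCF4 replicate 2 (2.94 RPKM) and Igkv1-99 in WT replicate 3 (0 RPKM).

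Fewer segments were read in dnTCF4, and on average fewer of them carried the sum. At 1 RPKM, 87, 68 and 72 segments were read in WT replicates 1, 2 and 3 and 54, 40 and 43 in the dnTCF4 replicates, with means of 75.7 ± 10.02 and 45.7 ± 7.37 (SD, n = 3 each; exact permutation p = 0.1). Such a count moves with the total, so usage, the share of a segment in the summed kappa V RPKM of its library, was also taken. Usage removes the scale of the total only. Whether counts by usage or evenness also depend on the amount of kappa V RNA in a library was not tested. At a usage of 0.1%, a threshold chosen after the values were seen, 64, 55 and 60 segments were read in WT and 47, 39 and 40 in dnTCF4 (exact permutation p = 0.1). The groups did not overlap on either measure.

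The 10 highest segments of each library held 46.4%, 62.1% and 51.5% of the kappa V sum in WT and 67.5%, 63.8% and 73.8% in dnTCF4 (means 53.3 ± 8.001% and 68.4 ± 5.07%, exact permutation p = 0.1). The inverse Simpson index, the number of equally used segments that would give the same concentration, was 28.8, 15.9 and 26.7 in WT and 11.0, 15.5 and 7.35 in dnTCF4 (means 23.8 ± 6.93 and 11.3 ± 4.10, exact permutation p = 0.1). On both measures WT replicate 2 lay next to dnTCF4 replicate 2, and the remaining WT libraries stood clear of the dnTCF4 libraries. The number of highest segments needed to reach 50% of the sum was 12, 7 and 10 in WT and 5, 7 and 3 in dnTCF4. The groups overlapped on that measure (exact permutation p = 0.2). A single segment took up to 19.0% of the sum in WT (Igkv19-93 in replicate 2) and up to 31.2% in dnTCF4 (Igkv6-15 in replicate 3). Over all 6 libraries the leading segment took 10.3%, 19.0% and 8.81% in WT and 23.9%, 15.8% and 31.2% in dnTCF4, with overlapping groups (exact permutation p = 0.2).

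**Figure D4:**
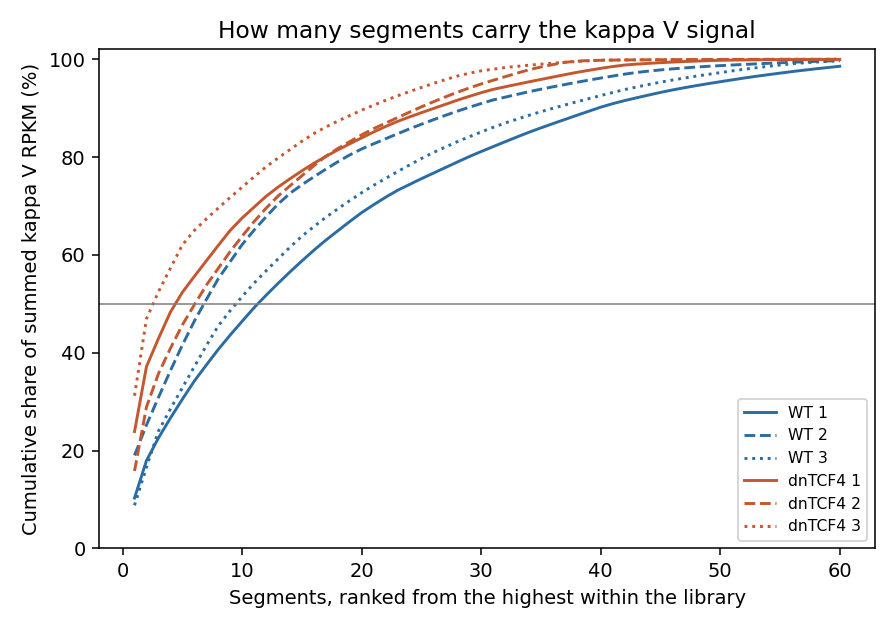
Cumulative share of the summed kappa V RPKM (percent) against the rank of the segments from the highest down, 1 curve per library, with WT in blue, dnTCF4 in orange and a grey line at 50%. The dnTCF4 replicate 3 curve rises fastest (73.8% at 10 segments) and the WT replicate 1 curve slowest (46.4%), while WT replicate 2 and dnTCF4 replicate 2 run close together (62.1% and 63.8%).

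Libraries also differed in which segments they used. The overlap of usage between 2 libraries, summed as the smaller usage of each segment, was 56.8% to 72.5% for the 3 pairs of WT libraries. It was 27.7% to 41.8% for the 3 pairs of dnTCF4 libraries and 32.5% to 59.4% for the 9 mixed pairs. The least overlap was between dnTCF4 replicates 2 and 3, which shared 2 of their 10 highest segments. WT replicates 1 and 3 shared the most usage, and 7 of their 10 highest segments. Each library enters several pairs, so these shares are a description.

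Kappa V families are groups of related segments, and 15 of the 20 families took at least 1% of the sum on average in either genotype. In 15 families every WT sum was above every dnTCF4 sum, and those that overlapped were families 7, 11, 16, 18 and 20. The kappa V total was separated in the same way, so these are not 15 independent results. Sums of like groups of other genes were not taken. Family 3 showed the largest fold difference among families read in every library. Its 13 segments summed to 2403, 874 and 1066 RPKM in WT and 57.4, 26.04 and 45.4 RPKM in dnTCF4, 33.7-fold lower on average, and all 8 tested were lower, with 3 called. The usage of family 3 was 4.40%, 3.02% and 4.35% in WT and 0.83%, 1.06% and 0.78% in dnTCF4, with no overlap. Within it, Igkv3-5 was at 190, 27.9 and 36.9 RPKM in WT and 7.85, 25.2 and 14.5 RPKM in dnTCF4, so that it was read in every dnTCF4 library while Igkv3-2 and Igkv3-4 were near 0.

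Family 9 was the other family whose usage did not overlap, with 2.40%, 5.82% and 2.16% in WT and 1.22%, 1.21% and 1.63% in dnTCF4. Its leading segment, Igkv9-120, was at 648, 1626 and 302 RPKM in WT and 84.1, 12.2 and 48.8 RPKM in dnTCF4 (limma adjusted p = 0.14). For families 3 and 9 the exact permutation p was 0.1, and adjusted over the 20 families it was 1, so no family passed. Family 5, with Igkv5-39 and Igkv5-43, was 20.6-fold lower on average, and its usage was 5.08%, 2.75% and 6.17% in WT and 2.87%, 1.13% and 0.36% in dnTCF4.

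Family 6, which holds Igkv6-15, was 4.40-fold lower in dnTCF4. Its usage was 17.7%, 12.1% and 15.3% in WT and 19.3%, 6.26% and 40.8% in dnTCF4, so dnTCF4 replicate 3 was above all and dnTCF4 replicate 2 below all WT libraries. Family 4, the largest with 32 segments and 26 tested, was 6.62-fold lower, with 24 of the 26 lower and 2 called. Its usage was 14.5%, 8.73% and 12.6% in WT and 16.6%, 15.1% and 9.16% in dnTCF4. The usage of family 1 was 13.9%, 8.85% and 9.23% in WT and 4.22%, 6.41% and 21.8% in dnTCF4, the last of which was mostly Igkv1-99 (15.7%). Family 19 is the single segment Igkv19-93, and its usage ran from 0.01% in dnTCF4 replicate 3 to 23.9% in dnTCF4 replicate 1. The families with the smallest fold differences among those with no overlap were family 10 (4.12-fold), family 6 and family 14 (4.95-fold).

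**Figure D5:**
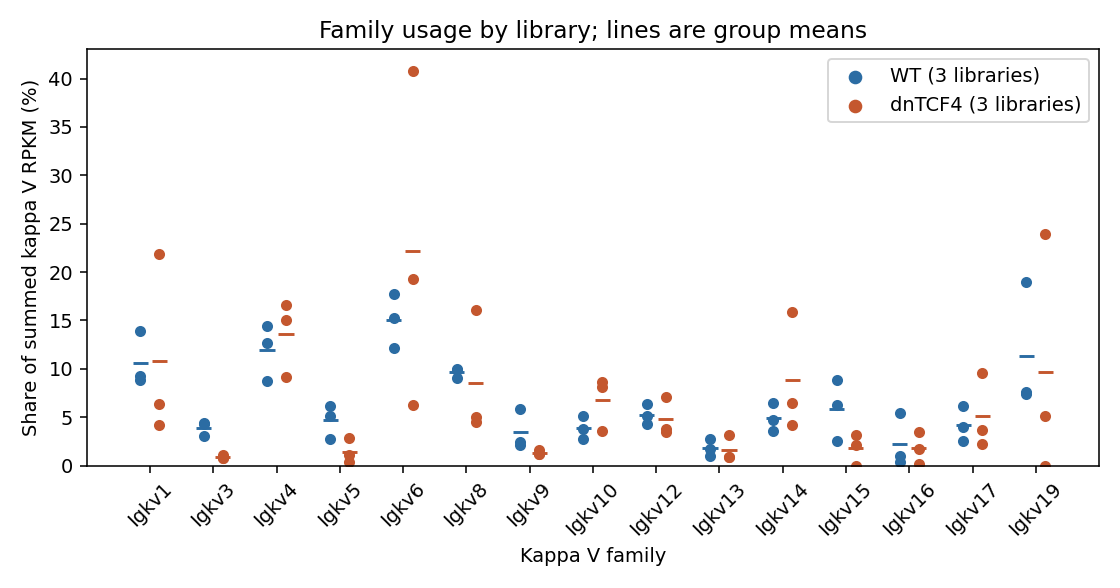
Share of the summed kappa V RPKM (percent) taken by each of the 15 families with a mean usage of at least 1% in either genotype, with 1 point per library (WT blue, dnTCF4 orange) and short lines at the group means. The orange points of families 1, 6, 8, 14 and 19 are widely spread, up to 40.8% for family 6 in dnTCF4 replicate 3, and families 3 and 9 are the only ones of the 15 whose blue and orange points do not overlap.

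The annotation separated read from unread segments. Of the 98 functional segments, 82 reached 10 RPKM in some library and 4 were listed at 0 in every library. Of the 60 pseudogenes, 0 reached 10 RPKM and 40 were listed at 0 in every library. The pseudogenes summed to 27.8, 2.35 and 5.21 RPKM in WT and 3.18, 7.48 and 0.69 RPKM in dnTCF4, with overlapping groups. The highest was Igkv4-77 at 9.44 RPKM in WT replicate 1.

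Segments lie on both strands of the locus. Those on the strand of Igkj and Igkc join by deleting the DNA between, and those on the opposite strand by inverting it. The 84 segments on the − strand held 66.1%, 64.0% and 63.7% of the sum in WT and 76.1%, 49.6% and 63.8% in dnTCF4. The WT libraries were nearly equal on this measure, and the dnTCF4 libraries fell on both sides of them (means 64.6 ± 1.29% and 63.2 ± 13.2%, exact permutation p = 0.8). Of the 10 called segments, 4 of 33 tested lay on the + strand and 6 of 56 tested on the − strand.

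By position, cut into 4 parts of nearly equal numbers of segments, the part nearest the joining genes (18.4 to 779 kb) held 25 tested segments with 4 called and a median log2 fold change of -3.70. The second part (822 to 1454 kb) held 21 with 5 called and a median of -4.17. The third (1479 to 2243 kb) held 23 with 0 called and a median of -1.64, and it includes Igkv19-93, Igkv1-99, Igkv10-95, Igkv4-86 and Igkv4-90. The farthest (2247 to 3166 kb) held 20 with 1 called, Igkv17-127, and a median of -3.10. The usage of each part overlapped between the genotypes (exact permutation p from 0.4 to 0.9).

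Many kappa V segments are close copies, and the sources used here do not say how reads that match several segments were counted. Over the last 285 bases, the identity of a tested segment to its nearest relative was 74.7% to 98.9%, with a median of 94.7%. A median of 94.6% of the 75-base windows of a tested segment occurred in no other kappa V segment, and 1 of 89 had less than 50% of its own. For 50-base windows the median was 75.4%, so the share depends on the length of the stretch read. The 50 segments with at least 90% of 75-base windows of their own had a median log2 fold change of -3.14, with 47 lower and 5 called. The 38 with 50% to 90% had a median of -3.20, with 37 lower and 5 called, so the medians of the 2 classes were close.

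The closest pair of tested segments, Igkv5-43 and Igkv5-45, differ at 3 of these 285 bases, in capitals below, and share the whole stretch from the last difference to the 3′ end.
Igkv5-43: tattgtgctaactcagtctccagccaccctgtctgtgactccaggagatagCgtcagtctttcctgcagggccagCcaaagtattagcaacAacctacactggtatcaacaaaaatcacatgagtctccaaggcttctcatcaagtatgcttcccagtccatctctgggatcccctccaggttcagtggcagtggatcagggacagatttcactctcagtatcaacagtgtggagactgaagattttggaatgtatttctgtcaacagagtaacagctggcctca
Igkv5-45: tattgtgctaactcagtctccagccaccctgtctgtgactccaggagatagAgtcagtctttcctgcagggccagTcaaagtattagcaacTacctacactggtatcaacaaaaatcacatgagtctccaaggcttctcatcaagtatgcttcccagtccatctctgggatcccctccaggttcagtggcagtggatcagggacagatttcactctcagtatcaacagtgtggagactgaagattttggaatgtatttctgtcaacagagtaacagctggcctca
Their levels did not run together. Igkv5-45 was at 47.9, 2.10 and 591 RPKM in WT and 9.60, 0.023 and 0.407 RPKM in dnTCF4, while Igkv5-43 was at 303 RPKM or more in every WT library and 12.3 RPKM or more in every dnTCF4 library. A transcript cannot be given to 1 of the pair with certainty from reads of the shared stretch, and the single values of these 2 segments are uncertain to that extent. The 3′ end printed above for Igkv3-4 is shared with Igkv3-5 and that of Igkv10-95 with Igkv10-94. Igkv10-94 was at 38.6 RPKM in dnTCF4 replicate 2, below the 101 RPKM of Igkv10-95 in that library.

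The joining segments were lower in dnTCF4 in each case. Igkj1, Igkj2, Igkj4 and Igkj5 are the joining segments used in mouse kappa chains, and Igkj3 is not functional. Igkj2 was at 2932 ± 494 RPKM in WT and 570 ± 175 RPKM in dnTCF4 (SD, n = 3 each) and fell by 2.40 on the log2 scale (limma adjusted p = 0.034, or 0.053 with the block). Igkj4 was at 1689 ± 616 and 163 ± 74.9 RPKM and fell by 3.38 (limma adjusted p = 0.034, or 0.076 with the block). Leaving out 1 library kept the call of Igkj2 in 1 and that of Igkj4 in 2 of 6 fits. Igkj1 (0.084), Igkj3 (0.0998) and Igkj5 (0.084) did not pass in limma by adjusted p, although with the block Igkj3 (0.031) and Igkj5 (0.032) did. Igkj2 took the largest share of the summed Igkj RPKM in each library (32.2%, 44.1% and 40.8% in WT and 42.7%, 47.4% and 45.7% in dnTCF4). Igkj3 took 0.12% to 0.56%.

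Genes that rearrange or transcribe the kappa locus were on either side of 0. Of 12 tested genes of V(D)J recombination, 9 were higher and 3 lower, with a median log2 fold change of 0.12. Limma called 0 of them, and 0 had an unadjusted p under 0.05. Over all genes tested the median was 0.14 and 31.5% had a lower fitted value, so this list was close to the whole. Rag1 was at no more than 0.612 RPKM in any library, and Rag2 was at 9.02 ± 4.84 RPKM in WT and 8.74 ± 3.10 RPKM in dnTCF4. Dntt, the polymerase that adds bases at the joint, was at 643, 190 and 168 RPKM in WT and 354, 91.1 and 86.6 RPKM in dnTCF4 (limma adjusted p = 0.69). Of 12 tested transcription factors that bind kappa promoters and enhancers or set up the locus, 7 were higher and 5 lower, with a median of 0.03, and limma called 0. The 2 with an unadjusted p under 0.05 were Irf4, at 1.72 ± 0.239 and 0.449 ± 0.085 RPKM (limma adjusted p = 0.079), and Pou2af1, at 10.1 ± 4.48 and 1.93 ± 1.09 RPKM (limma adjusted p = 0.117, or 0.020 with the block). Irf4 binds the kappa enhancer and is needed by plasma cells, and Pou2af1 is a coactivator of octamer-binding factors at immunoglobulin promoters. For both genes every dnTCF4 library was below every WT library.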

How the data were processed

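Poly(A) RNA of sorted ST-HSC from 6 mice was analysed. Per the labels' protocols, a SMART-Seq v4 kit served for complementary DNA and Nextera XT for paired-end NextSeq libraries, in which strand is not marked. The authors deposited 1 table of RPKM values. The tools and builds in the submitters' processing notes are STAR, featureCounts, DESeq2, edgeR, mm10 and GRCm38. Their roles and versions, the annotation and the counting of reads that match several genes are not given there.

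The depth of each library was recovered from the product of RPKM and the length of a gene's merged exons (GENCODE M21). Over the annotated genes this product moves in steps of whole reads. With that depth, 99.6% of the 494 values above 0 of the segments were whole reads, within 0.02 of a read. The 11326 genes whose mean reached 1 RPKM were tested by limma 3.58.1 under R 4.3.3 on log2(RPKM + 1) (lmFit, eBayes with trend, two-sided, Benjamini-Hochberg over all of them), with genotype as the only term and a call at an adjusted p under 0.05. A fold change on this scale understates the change of low genes. Single values per library were compared with an exact two-sided permutation test. The script was tested on simulated data. Python 3.11.15, pandas 2.3.3, numpy 2.4.6, edlib 1.3.9.post1 and matplotlib 3.10.9 were used.

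The labels do not say whether the replicate numbers pair the samples. Libraries with the same number deviated together from the means of their groups (correlations 0.17, 0.35 and 0.30 over the tested genes, all over 0.1). Libraries with different numbers were not compared in this way, so these correlations cannot show that the numbers pair the samples. A fit with the number as a block was therefore made only as an alternative, and its p-values rest on an assumed pairing. Alternatives were the pseudocount, the filter, 2 scalings, functional segments only, recovered reads, other measures of evenness and leaving out each library. The members, gene lists and tests were chosen with earlier results of these data known. Segments named were the 10 highest of each genotype, the called ones, the highest of each library and family, and up to 5 with a higher mean in dnTCF4. Others, such as Igkv3-5, Igkv4-50, Igkv4-77, Igkv5-45, Igkv6-32 and Igkv12-41, were named after their values were seen. Of the other genes, Pax5, Cd79a, Cd79b, Cd72, Fcrla, Sdc1, Edem1, Cxcr2, Kit, Cd48, Slamf1, Rag1, Rag2 and Dntt were also chosen so. The same holds for Mzb1, Eaf2, Vpreb1, Vpreb2, Vpreb3, Igll1, Iglc2, Iglc3 and Iglv3. A further 2 kappa V segments are not reported here and are in no sum. Recombination signals, promoters and protein sequences were not analysed here.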

Additional observations from a re-analysis of the deposited data

How the results depend on the processing

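The count of called segments (10) was 9 with a pseudocount of 0.1, 10 with a mean of at least 5 RPKM, 10 with each scaling, 12 with the replicate block, 4 with no filter, and 5 to 15 when 1 library was left out. The lowest counts were 5 without WT replicate 1 and 6 without dnTCF4 replicate 3. The 4 segments called with no filter were among the 10. With 2 libraries left in a genotype, limma takes their spread to be like that of the other genes and libraries. The median log2 fold change ran from -3.72 to -2.57 over these settings. Median ratio scaling moved the median of all genes from 0.14 to -0.04 and the kappa V sum to -3.09 (log2), and rescaling to RPKM outside immunoglobulin genes moved them to -0.03 and -3.08, against -2.88 as reported. The V to Igkc difference turned to -0.029 without dnTCF4 replicate 1 (range -0.029 to 0.15). The sum, share, evenness and number of segments kept their direction in every setting run. The exact permutation p of the inverse Simpson index was 0.2 without WT replicate 1 and without each single dnTCF4 library. That of the share of the 10 highest segments was 0.2 without each single dnTCF4 library. The direction of 10 tested segments turned when some library was left out, 0 of them with a call, and of none in the other settings. These were Igkv2-112, Igkv4-57-1, Igkv4-79, Igkv4-80, Igkv12-41, Igkv12-98 and 4 segments named by the rule, which were Igkv4-55 without WT replicate 1 (0.27, range -1.61 to 0.27 over the libraries left out), Igkv4-90 without WT replicate 2 (0.39), WT replicate 3 (0.95) or dnTCF4 replicate 2 (1.37, range -1.56 to 1.37), Igkv4-86 without WT replicate 2 (-0.47), WT replicate 3 (-0.44) or dnTCF4 replicate 3 (-1.63, range -1.63 to 2.52), and Igkv4-58 without dnTCF4 replicate 3 (1.13, range -1.98 to 1.13). The cause was not tested. With the replicate block, the called segments Igkv5-43 and Igkv17-127 lost their call, Igkv1-110, Igkv4-59, Igkv6-32 and Igkv10-96 gained one, and no other kappa V segment changed its call. With 3 libraries per genotype, no measure tested by permutation could pass 0.05, and a segment listed at 0 can still be present below 3 reads.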

Other observations

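Heavy chain V segments and most lambda light chain genes were lower in the same libraries. Summed heavy chain V segments reached 41701, 18030 and 20576 RPKM in WT and 4125, 1912 and 3207 RPKM in dnTCF4, 8.69-fold lower on average with no overlap (exact permutation p = 0.1). Iglv1, the most abundant lambda V segment of the 3 measured here, was at 17197 RPKM in WT replicate 1 against 1759 and 1633 RPKM in the other WT libraries, and at 362, 163 and 437 RPKM in dnTCF4 (limma adjusted p = 0.22). WT replicate 1 was also the highest library for the kappa V sum, but there it exceeded the other WT libraries far less. For Iglc1, Iglc2 and Iglv2, every dnTCF4 library was below every WT library. Iglc3 overlapped, at 1082, 114 and 92.2 RPKM in WT and 64.8, 71.5 and 132 RPKM in dnTCF4. Iglv3 overlapped too, at 128, 135 and 36.9 RPKM in WT and 68.8, 2.04 and 13.8 RPKM in dnTCF4.

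The products of the surrogate light chain genes Vpreb1, Vpreb2 and Igll1 pair with the heavy chain in pre-B cells before kappa is joined. These genes and Vpreb3 did not pass the test. Vpreb1 was at 4.401, 1.92 and 1.62 RPKM in WT and 6.70, 1.39 and 1.08 RPKM in dnTCF4 (log2 difference -0.04, limma adjusted p = 0.98). Vpreb2 was at 7.23, 0.151 and 0.172 RPKM in WT and 8.50, 0.231 and 0.122 RPKM in dnTCF4 (log2 difference 0.08, limma adjusted p = 0.98). Igll1 was at 2.76, 0.576 and 0.184 RPKM in WT and 5.10, 0.225 and 0.854 RPKM in dnTCF4 (log2 difference 0.33, limma adjusted p = 0.83). Vpreb3 was at 9.59, 2.58 and 4.09 RPKM in WT and 6.39, 1.71 and 1.76 RPKM in dnTCF4 (log2 difference -0.60, limma adjusted p = 0.71). All 4 were highest in replicate 1 of each genotype.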
